A study of Bos taurus with 15 samples.

Results

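Genes that handle fatty acids in the uterine lining are described here across 15 beef heifers (Bos taurus), as 10 of the 32671 gene entries in the deposited table. They are LPL, CD36 and FABP3 (lipid supply), DGAT2 and PLIN2 (storage), FASN and SCD (synthesis and desaturation) and ELOVL5, ELOVL6 and ELOVL7 (elongation). The entries were taken by gene symbol, and the genes were chosen by a reading of earlier results of the same 15 libraries, among which ELOVL7 had one of the smallest p values between Infertile and High-fertile heifers. Differences of these genes between fertility classes are therefore given as a description, without a test.

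Endometrium was biopsied on day 14 of pregnancy from 5 heifers labelled High-fertile, 5 labelled Sub-fertile and 5 labelled Infertile. All 15 animals had shared treatments, per the labels' protocols. Their estrous cycles were synchronised with GnRH, prostaglandin F, a progesterone insert and estradiol. An embryo produced in vivo was placed on the seventh day into the uterine horn ipsilateral to the corpus luteum. Forceps biopsies followed a flush of the uterus. The sources used here do not give the way heifers were classed or the contents of each flush. Each library was made from 1 heifer, and replicate spread is therefore spread between animals.

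Lipoprotein lipase, encoded by LPL, frees fatty acids from circulating lipoproteins, CD36 carries them across the cell membrane and FABP3 binds them in the cytosol. DGAT2 joins the last fatty acid to a triglyceride and PLIN2 coats the droplet in which triglycerides are kept. FASN builds fatty acids from short units, SCD places a double bond in them, and the ELOVL enzymes lengthen them in the endoplasmic reticulum. In cattle, LPL and DGAT2 have been described as genes of the endometrium that respond to progesterone, and the elongating embryo takes up lipid from the uterine fluid.

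Total counts ran from 38017136 to 62858724 per library. Markers of epithelium (735 to 1115, 519 to 1355 and 814 to 1513 summed CPM in the High-fertile, Sub-fertile and Infertile libraries) and of stroma (7968 to 12930, 6946 to 16620 and 6115 to 19710 summed CPM) were present in every library. CPM here means the count of a gene scaled to library size with TMM factors. Of 6 adipocyte markers, LEP was at 0 in all 15 libraries, ADIPOQ was at 0 in 10 libraries and did not exceed 8 counts, and FABP4 did not exceed 26 counts. PLIN1 and LIPE were the 2 adipocyte markers that passed the filter on low counts, and the summed adipocyte list was at 17.2 to 29.7, 12.9 to 21.9 and 12.4 to 22.1 CPM in the 3 classes. In whole biopsies, fewer cells of a type and less RNA per cell cannot be told apart.

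By the counts of 372 pseudogene and ribosomal RNA genes, none of them a lipid gene, the libraries divided into sets of 8, 5 and 2. The set of 8 held High-fertile replicates 2 to 5, replicates 3 and 4 of the Sub-fertile class and replicates 1 and 4 of the Infertile class. The set of 5 held no High-fertile library, and was made up of replicates 1, 2 and 5 of the Sub-fertile class with replicates 3 and 5 of the Infertile class. The set of 2 held High-fertile replicate 1 and Infertile replicate 2. Pseudogenes took 1.09% and 1.21% of counts in these 2 libraries and 2.39% to 3.27% in the other 13. The labels name no batch, and the sets are unevenly spread over the classes, so class differences are also given from a model that holds the set as a covariate.

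The table splits LPL and CD36 over entries with related names. It lists LPL with a length of 461 bases beside LPL-2 with 3163 bases, and CD36 with 524 bases beside CD36-2 with 5256 bases. The second entries carry no description, and the table does not state how the entries relate. In all, 965 entry names end in a hyphen and a digit. LPL held 1143 counts over the 15 libraries and LPL-2 held 12460, so the short entry took 5.31% to 10.2% (median 8.75%) of the counts of both. CD36 held 6 counts in 4 libraries, at most 2 in any one, and CD36-2 held 6510. Values of LPL-2 and CD36-2 are given beside the members as companions that were picked after their values had been seen.

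Per unit of length, the elongases ELOVL6 and ELOVL5 stood at the top of the 10 entries and LPL and CD36 at the bottom. The deposited FPKM values, which are scaled by gene length and library size, had medians over 15 heifers of 31.1 for ELOVL6, 28.7 for ELOVL5, 26.2 for PLIN2, 19.6 for FASN, 16.8 for SCD, 11.2 for DGAT2, 5.35 for FABP3, 3.39 for ELOVL7 and 3.09 for LPL. CD36 had a median of 0. Most neighbours in this order were not separated from each other in every heifer. ELOVL6 exceeded ELOVL5 in 10 of 15 libraries, ELOVL5 exceeded PLIN2 in 9, FASN exceeded SCD in 8, FABP3 exceeded ELOVL7 in 9 and ELOVL7 exceeded LPL in 7. The wider steps were from PLIN2 to FASN and from SCD to DGAT2, each seen in 13 of 15 libraries, and from DGAT2 to FABP3, seen in 11. The short length of the LPL entry enters its FPKM, and LPL-2 had a median FPKM of 5.02.

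**Figure D1:**
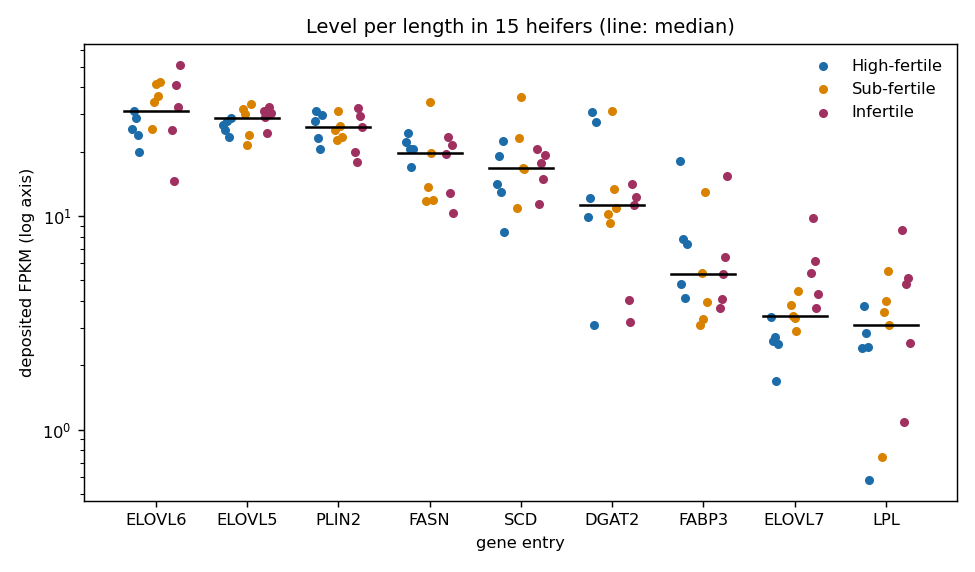
Deposited FPKM (log axis) of 9 lipid gene entries, 1 point per heifer, coloured by fertility class, with a line at the median of 15 heifers. ELOVL6 has the highest median (31.1) and LPL the lowest (3.09), and the points of LPL, DGAT2 and FABP3 are spread the most. CD36, with a median of 0, is not drawn.

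The 10 genes differed in how much they varied from heifer to heifer. ELOVL5 and PLIN2 were the steadiest, with coefficients of variation over 15 libraries of 13.7% and 15.9%, against a median of 30.1% for the 19962 genes tested. Their highest library exceeded their lowest by 1.63 and 1.75 times. FABP3 (67.1%), DGAT2 (66.3%) and LPL (63.4%) varied the most, above 88.5%, 88.2% and 86.9% of tested genes. The ratio of highest to lowest library was 15.9 for LPL, 9.81 for DGAT2 and 5.88 for FABP3. ELOVL6 (30.8%), FASN (32.2%) and SCD (36.7%) lay near the median gene. ELOVL7 had a coefficient of 48.4% over all heifers and 35.2% within classes, the widest step between these 2 measures among the 9 members tested.

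**Figure D2:**
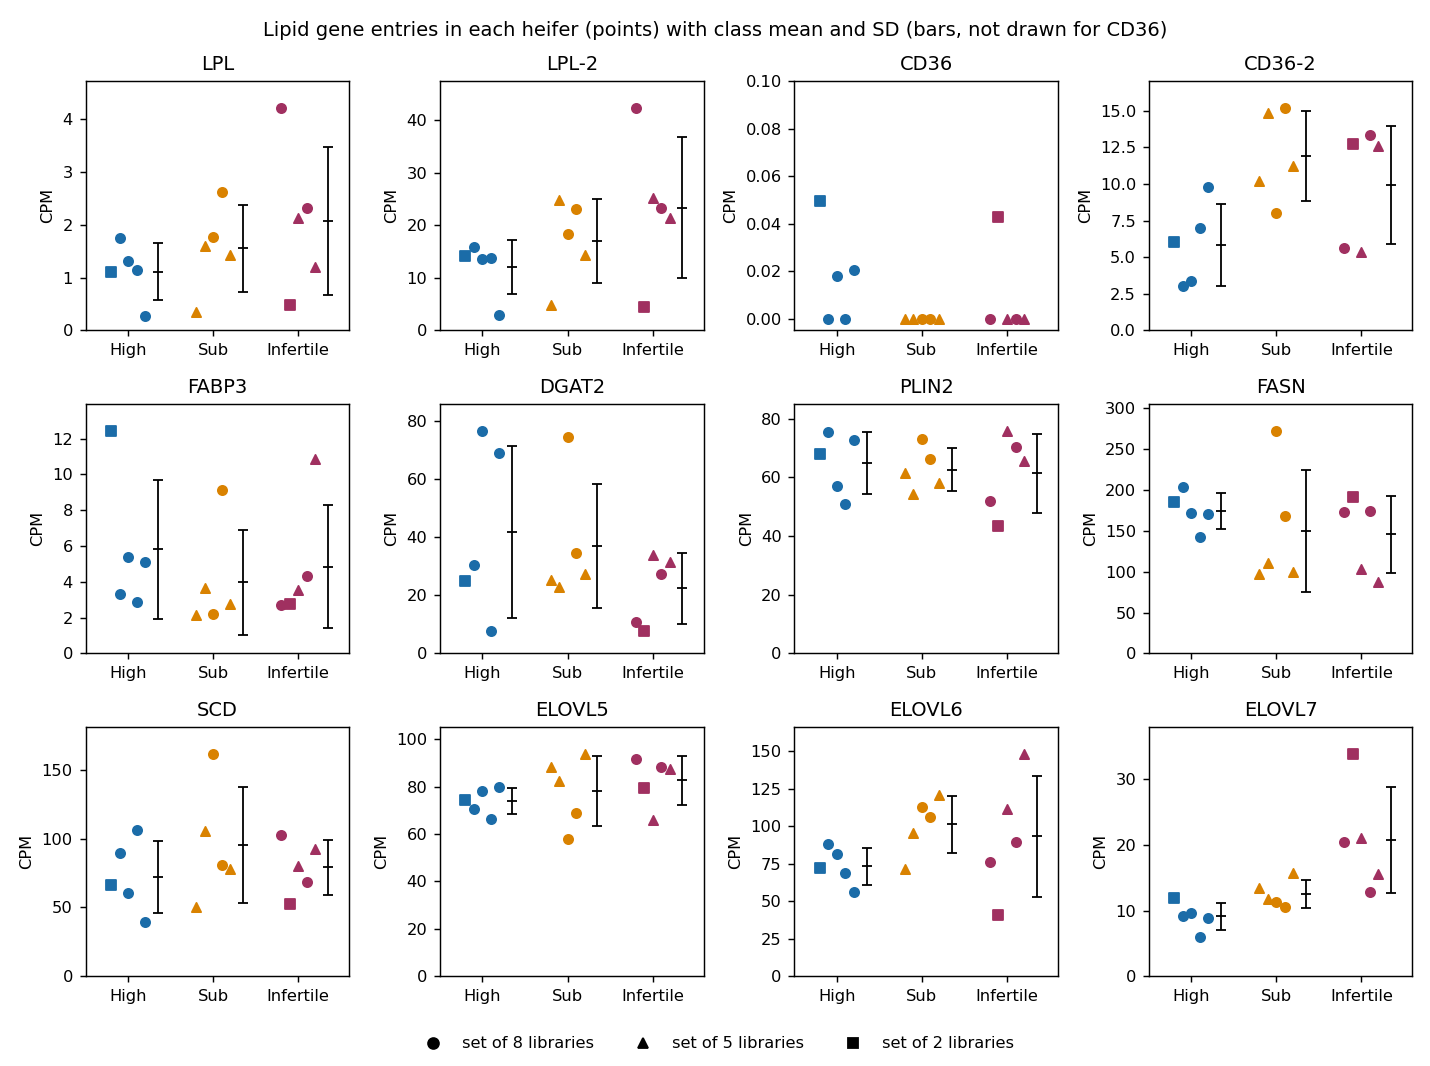
CPM of 12 lipid gene entries in each of 15 heifers, 1 panel per entry, points coloured by class and shaped by library set, with black bars for the class mean and SD (n = 5; not drawn for CD36, whose 15 libraries hold 0 to 2 counts). For ELOVL7 all 5 Infertile points lie above all 5 High-fertile points, and for every other member the classes overlap.

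LPL, the lipase of the supply group, was lower in counts than most members and ranged widely within each class. Its entry stood at 1.11, 1.75, 1.30, 1.13 and 0.264 CPM in High-fertile replicates 1 to 5, at 0.340, 1.60, 1.78, 2.62 and 1.43 CPM in Sub-fertile replicates 1 to 5, and at 4.21, 0.489, 2.13, 2.32 and 1.20 CPM in Infertile replicates 1 to 5. Each class held 1 library well below its others, and the classes overlapped. The log2 fold change of LPL, with its standard error, was 0.48 ± 0.584 for Sub-fertile against High-fertile, 0.89 ± 0.585 for Infertile against High-fertile and 0.41 ± 0.580 for Infertile against Sub-fertile. With the sets in the model these were 0.63 ± 0.671, 1.01 ± 0.624 and 0.38 ± 0.564. Within the set of 8 alone they were 0.97, 1.55 and 0.58, and without the set of 2 they were 0.49, 1.15 and 0.66. Infertile replicate 1, the highest library, also had the highest sum of 6 smooth muscle markers, 21800 CPM against 484 to 10630 CPM in the other 14, and the part of smooth muscle in the LPL level was not tested. Without that library the Infertile against High-fertile value was 0.46, and the Infertile against Sub-fertile value was -0.03.

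The longer companion LPL-2 followed LPL over the heifers (Pearson r = 0.961 and Spearman rho = 0.875 over 15 libraries, as a description of entries that may share a gene). Its levels were 14.2, 15.9, 13.6, 13.8 and 2.99 CPM in the High-fertile, 4.81, 24.8, 18.3, 23.1 and 14.3 CPM in the Sub-fertile, and 42.4, 4.49, 25.2, 23.4 and 21.4 CPM in the Infertile heifers, in replicate order. The same libraries were high and low as for LPL at the extremes, namely Infertile replicate 1 at the top and High-fertile replicate 5 at the bottom. The log2 fold changes of LPL-2 were 0.50 ± 0.534, 0.95 ± 0.537 and 0.45 ± 0.533 in the order of comparisons above, none of which passed edgeR's quasi-likelihood test with Benjamini-Hochberg adjustment over all genes (adjusted p = 0.628, 0.498 and 0.998). Without Infertile replicate 1 the last 2 fold changes were 0.62 and 0.12, and within the set of 8 the 3 values were 0.82, 1.50 and 0.68.

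CD36, the fatty acid carrier, was close to absent under its own entry. High-fertile replicate 1 and Infertile replicate 2 had 2 counts each, High-fertile replicates 3 and 5 had 1 each, and the other 11 libraries had 0. A count of 0 leaves room for a level of 3 counts (0.0477 to 0.0789 CPM, depending on the library). The entry did not pass the filter on low counts, and no difference between classes was detectable at this depth. CD36-2 was at 6.03, 3.02, 3.38, 6.99 and 9.83 CPM in the High-fertile, 10.2, 14.9, 8.06, 15.2 and 11.3 CPM in the Sub-fertile, and 5.63, 12.7, 5.37, 13.3 and 12.6 CPM in the Infertile heifers. All 5 Sub-fertile libraries exceeded the High-fertile median, with overlap between High-fertile replicate 5 and Sub-fertile replicate 3. The log2 fold changes of CD36-2 were 1.03 ± 0.358 for Sub-fertile against High-fertile (edgeR adjusted p = 0.360), 0.76 ± 0.357 for Infertile against High-fertile (adjusted p = 0.452) and -0.26 ± 0.354 for Infertile against Sub-fertile (adjusted p = 0.998), so none passed. With the library sets in the model the first 2 were 1.10 ± 0.439 and 0.77 ± 0.405.

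FABP3, the cytosolic carrier, had 1 high library in each class. It stood at 12.4, 3.29, 5.36, 2.87 and 5.09 CPM in the High-fertile, 2.12, 3.64, 2.18, 9.13 and 2.76 CPM in the Sub-fertile, and 2.72, 2.77, 3.56, 4.34 and 10.9 CPM in the Infertile heifers. In all, 3 libraries, 1 per class, were at 9.13 CPM or above and the other 12 at 5.36 CPM or below. These 3 libraries also came 1 from each library set. The log2 fold changes were -0.55 ± 0.527 (Sub-fertile against High-fertile), -0.26 ± 0.526 (Infertile against High-fertile) and 0.29 ± 0.527 (Infertile against Sub-fertile). The first was about the size of its error and the others were smaller than theirs. With the sets in the model they were -0.36 ± 0.628, -0.17 ± 0.655 and 0.19 ± 0.564, and within the set of 8 they were 0.44, -0.24 and -0.68. Single libraries decided their signs or sizes. Without High-fertile replicate 1 the first 2 values were -0.06 and 0.22, without Sub-fertile replicate 4 the first was -1.11 and the third 0.85, and without Infertile replicate 5 the second was -0.80 and the third -0.26.

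DGAT2, which completes triglycerides, separated heifers within classes more than it separated classes. Its levels were 24.9, 30.4, 76.7, 7.82 and 68.9 CPM in the High-fertile, 25.4, 22.8, 74.5, 34.5 and 27.4 CPM in the Sub-fertile, and 10.8, 7.87, 34.0, 27.5 and 31.5 CPM in the Infertile heifers. High-fertile replicates 3 and 5 and Sub-fertile replicate 3 were at 68.9 CPM or above, and the other 12 libraries were at 34.5 CPM or below. No Infertile heifer was in the upper cluster. All 3 libraries of that cluster belonged to the set of 8, which held 2 of the 5 Infertile heifers. The class means were 41.7 ± 29.7, 37.0 ± 21.5 and 22.4 ± 12.2 CPM (SD, n = 5), and the log2 fold changes were -0.18 ± 0.557, -0.90 ± 0.561 and -0.73 ± 0.560 in the order Sub-fertile against High-fertile, Infertile against High-fertile and Infertile against Sub-fertile. The first turned to 0.16 without High-fertile replicate 3 and to -0.60 without Sub-fertile replicate 3. Without High-fertile replicate 3 the second was -0.56, and without Sub-fertile replicate 3 the third was -0.30. Within the set of 8 the 3 values were 0.23, -1.27 and -1.50, and with the sets in the model they were -0.33 ± 0.612, -0.89 ± 0.640 and -0.56 ± 0.566.

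PLIN2, the droplet coat, had similar class means. It ranged from 50.8 to 75.5 CPM in the High-fertile, 54.3 to 73.1 CPM in the Sub-fertile and 43.4 to 75.9 CPM in the Infertile heifers. The class means were 64.9 ± 10.5, 62.6 ± 7.32 and 61.5 ± 13.5 CPM (SD, n = 5). Its 3 log2 fold changes were -0.05, -0.08 and -0.03, each smaller than its standard error of 0.159. With the sets in the model they were -0.11, -0.10 and 0.01.

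FASN, the fatty acid synthase, had the highest CPM of the members. It stood at 184.9, 203.4, 171.7, 142.5 and 170.9 CPM in the High-fertile, 97.1, 110.9, 272.8, 167.7 and 99.3 CPM in the Sub-fertile, and 173.1, 191.5, 103, 174.6 and 87.9 CPM in the Infertile heifers. All High-fertile heifers were among the 10 libraries at 142.5 CPM or above, and the other 5 libraries were at 110.9 CPM or below. Those 5 low libraries were exactly the set of 5 libraries defined by pseudogenes and ribosomal RNA. Log2 fold changes between classes were -0.22 ± 0.288 (Sub-fertile against High-fertile), -0.26 ± 0.288 (Infertile against High-fertile) and -0.03 ± 0.288 (Infertile against Sub-fertile). With the library sets in the model they were 0.29 ± 0.151, 0.07 ± 0.141 and -0.21 ± 0.135, so the first 2 changed sign.

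Neither FASN nor the classes entered the definition of the sets, but the sets were drawn from the same libraries after the data had been seen. The p value below therefore describes how closely FASN followed the split, and is no test on independent data. FASN was at 99.6 ± 8.41 CPM in the set of 5 and 185 ± 39.2 CPM in the set of 8 (SD, n = 5 and 8), with no overlap. Its log2 fold change, with class in the model, was -0.99 ± 0.135 (edgeR quasi-likelihood test, Benjamini-Hochberg adjusted p = 0.000159). Lower FASN in the set of 5 was part of a wide difference, since 6126 of 19962 genes (30.7%) passed the same test, 2614 higher and 3512 lower. One of the 9 members tested passed, a smaller share than this background. Between the set of 2 and the set of 8, 4.56% of genes and 0 of 9 members passed. ELOVL7 came nearest there, at a log2 fold change of 0.79 ± 0.216 (edgeR adjusted p = 0.0612).

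**Figure D3:**
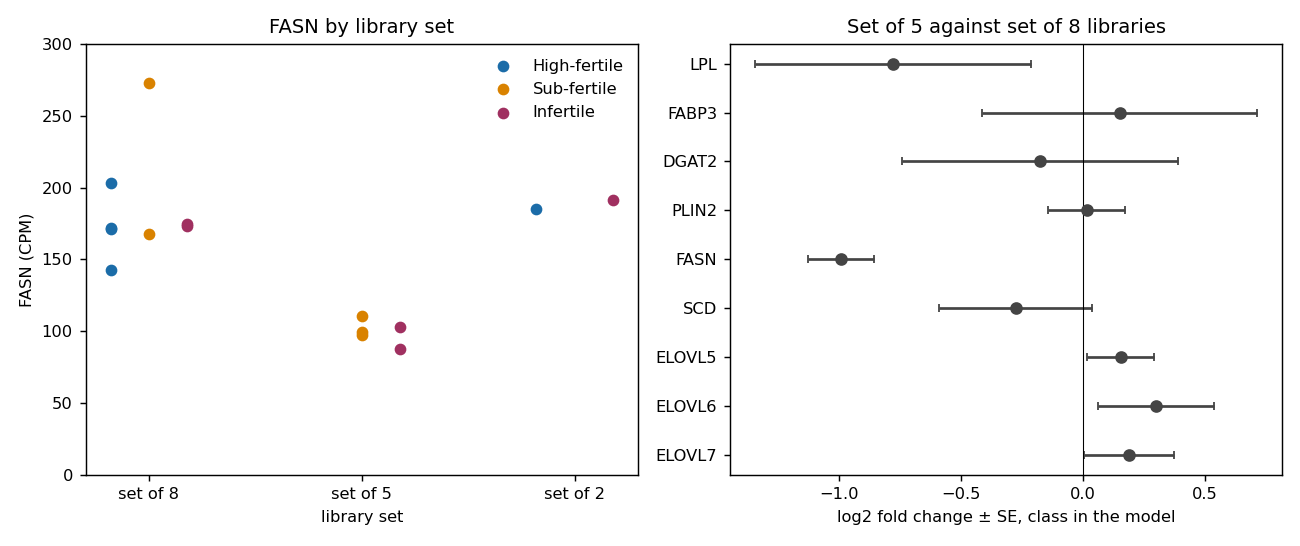
Left, FASN in CPM by library set, 1 point per heifer coloured by class. The set of 5 lies at 87.9 to 110.9 CPM and the sets of 8 and 2 at 142.5 CPM or above. Right, log2 fold change (point) and standard error (bar) of 9 members between the set of 5 and the set of 8, with class in the model, where FASN (-0.99) is the member that passed the edgeR test.

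SCD, the desaturase, was at 66.1, 89.2, 60.5, 106.4 and 39.3 CPM in the High-fertile, 50.5, 105.9, 161.8, 80.6 and 78.2 CPM in the Sub-fertile, and 102.7, 52.3, 80.0, 68.5 and 92.4 CPM in the Infertile heifers. The classes overlapped over most of their range, and Sub-fertile replicate 3, which also had the highest FASN, was the highest library. Log2 fold changes were 0.40 ± 0.305, 0.13 ± 0.305 and -0.27 ± 0.305, in the order used above. With the sets in the model they were 0.44 ± 0.353, 0.22 ± 0.337 and -0.22 ± 0.313. The first was 0.12 without Sub-fertile replicate 3 and 0.69 within the set of 8. A separate entry described as similar to acyl-CoA desaturase, LOC101906058, held 132 to 656 counts per library, and reads of SCD could have been split with it.

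ELOVL7, which lengthens long-chain fatty acids, was the member whose classes stood furthest apart. It was at 11.9, 9.19, 9.58, 6.01 and 8.89 CPM in the High-fertile, 13.4, 11.7, 11.4, 10.5 and 15.8 CPM in the Sub-fertile, and 20.4, 33.9, 21.1, 12.9 and 15.6 CPM in the Infertile heifers. Every Infertile heifer exceeded every High-fertile heifer, and every Sub-fertile heifer exceeded the High-fertile median. The Sub-fertile range overlapped with both other classes. The class means were 9.11 ± 2.10, 12.6 ± 2.09 and 20.8 ± 8.09 CPM (SD, n = 5). Log2 fold changes were 0.46 ± 0.244 for Sub-fertile against High-fertile, 1.19 ± 0.246 for Infertile against High-fertile and 0.73 ± 0.244 for Infertile against Sub-fertile. Since this difference was among those that chose the genes, it supports nothing further.

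The height of the Infertile mean of ELOVL7 rested in part on Infertile replicate 2, one of the set of 2 libraries, at 33.9 CPM. Without it the Infertile against High-fertile value was 0.94, and over all libraries left out in turn it ran from 0.94 to 1.33. Within the set of 8 it was 0.98, and with the sets in the model it was 1.07 ± 0.191. The Infertile against Sub-fertile value was 0.47 without Infertile replicate 2 and 0.56 ± 0.186 with the sets in the model. The direction held in each of these fits. Since no Infertile library overlapped with a High-fertile one, leaving libraries out could not have turned that sign, and the kept direction adds no support.

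ELOVL6, which extends the products of FASN, was at 72.0, 87.9, 81.3, 68.6 and 56.4 CPM in the High-fertile, 71.7, 95.2, 113, 106.2 and 120.6 CPM in the Sub-fertile, and 76.1, 40.6, 111.8, 89.7 and 148.4 CPM in the Infertile heifers. Its lowest and highest libraries were both Infertile. Log2 fold changes were 0.47 ± 0.261 for Sub-fertile against High-fertile and 0.35 ± 0.261 for Infertile against High-fertile, and these were 0.18 ± 0.268 and 0.13 ± 0.259 with the sets in the model. The third, Infertile against Sub-fertile, was -0.12 ± 0.261, and -0.05 ± 0.236 with the sets in the model. Within the set of 8 the values were 0.56, 0.17 and -0.39 in the same order. Without the set of 2 they were 0.46, 0.53 and 0.07.

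ELOVL5, which elongates polyunsaturated fatty acids, was the steadiest member. It ranged from 66.3 to 79.8 CPM in the High-fertile, 57.7 to 93.9 CPM in the Sub-fertile and 66.1 to 91.8 CPM in the Infertile heifers. The 3 log2 fold changes were 0.08, 0.16 and 0.08, each with a standard error of 0.134. When the sets were in the model, they were -0.02, 0.11 and 0.13, and within the set of 8 libraries the first was -0.24 and the third 0.52.

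**Figure D4:**
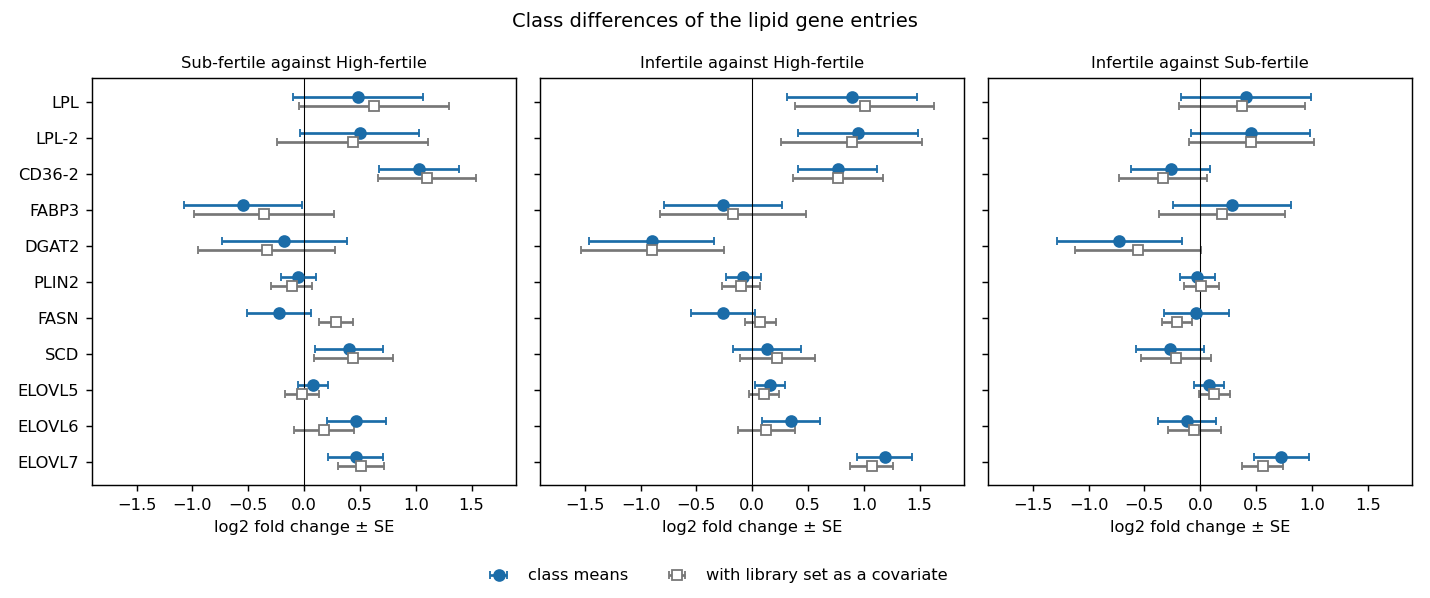
Log2 fold change (point) and standard error (bar) of 11 lipid gene entries in 3 class comparisons, filled from the model of class means and open with the library set as a covariate. ELOVL7 lies furthest from 0 for Infertile against High-fertile (1.19, and 1.07 with the covariate), and FASN lies on opposite sides of 0 in the 2 models for Sub-fertile against High-fertile (-0.22 and 0.29).

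Counted over the 9 members that passed the filter, 5 were higher and 4 lower in Sub-fertile than in High-fertile heifers, and their median log2 fold change was 0.08 against 0.01 over all genes. In Infertile against High-fertile heifers 5 were higher and 4 lower, with a median of 0.13 against 0.04. In Infertile against Sub-fertile heifers 4 were higher and 5 lower, with a median of -0.03 against 0.03. The comparisons share libraries, so their counts are not independent. Over the 19962 genes, 0% passed edgeR's test at an adjusted p of 0.05 in Sub-fertile against High-fertile, 0% in Infertile against High-fertile and 0% in Infertile against Sub-fertile. The smallest adjusted p values were 0.121, 0.435 and 0.998, while 2738, 2201 and 525 genes had an unadjusted p under 0.05, and DESeq2 called 19, 34 and 11 genes. Non-overlapping classes were found in 0 members against 5.07% of all genes in Sub-fertile against High-fertile, in 1 member (ELOVL7) against 2.22% in Infertile against High-fertile, and in 0 members against 0.205% in Infertile against Sub-fertile. Nothing is read from these member counts, since class values chose the genes.

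Within the set of 8 libraries alone, with 4 High-fertile, 2 Sub-fertile and 2 Infertile heifers, more members had classes that did not overlap. LPL, ELOVL6 and ELOVL7 were higher in both Sub-fertile than in all 4 High-fertile libraries, as a description beside 21.2% of all genes that did not overlap there. LPL, ELOVL5 and ELOVL7 were higher in both Infertile libraries than in all 4 High-fertile libraries, beside 13.1% of all genes. Between the 2 Infertile and the 2 Sub-fertile libraries, DGAT2 and ELOVL6 were lower and ELOVL5 and ELOVL7 higher in Infertile without overlap, beside 30.1% of all genes. With 2 libraries in a class such separations are frequent among all genes.

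Per unit of length, the elongase family as a whole was led on average by ELOVL2, which is no member. In CPM, which is not scaled by gene length, ELOVL2 had medians of 34.5, 37.15 and 34.8 in High-fertile, Sub-fertile and Infertile heifers. These were below the medians of ELOVL1, ELOVL5 and ELOVL6 in each class. Of the summed FPKM of ELOVL1 to ELOVL7, ELOVL2 took a mean of 31.0% over 15 libraries, ELOVL6 24.8%, ELOVL5 22.1%, ELOVL1 17.8%, ELOVL7 2.97% and ELOVL4 1.30%. ELOVL2 reached 74.3% in Infertile replicate 2, the library in which ELOVL7 was also highest and ELOVL6 lowest. ELOVL7 thus stayed a minor elongase in every class, with shares of 2.23 ± 0.549%, 2.84 ± 0.666% and 3.83 ± 1.15% (SD, n = 5) in High-fertile, Sub-fertile and Infertile heifers. Its FPKM class means of 2.57 ± 0.603, 3.57 ± 0.584 and 5.87 ± 2.37 repeated the order seen in CPM.

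**Figure D5:**
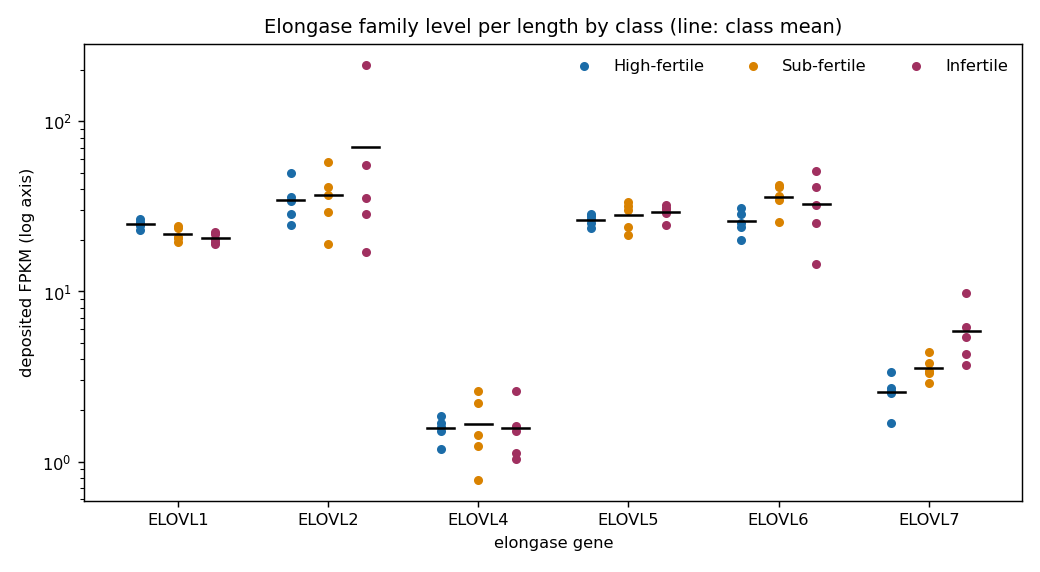
Deposited FPKM (log axis) of 6 elongase genes by class, 1 point per heifer, with a line at the class mean (n = 5). ELOVL7 has class means of 2.57, 3.57 and 5.87 and lies below ELOVL1, ELOVL2, ELOVL5 and ELOVL6, and 1 Infertile library reaches an ELOVL2 level of 214.9. ELOVL3, near 0, is not drawn.

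Across heifers the members did not move as 1 group. Of the 36 pairs among the 9 tested members, 19 had a Pearson r above 0 in log2 CPM, 4 had an unadjusted permutation p under 0.05, and 0 passed the adjustment over pairs. The strongest pair was DGAT2 with PLIN2, the droplet pair, at r = 0.715 (permutation test, adjusted p = 0.0675) and rho = 0.654 (adjusted p = 0.360) over 15 libraries. Its r was 0.725 with class means removed and 0.659 within the set of 8 (exact permutation p = 0.0838). Without the 2 libraries farthest from the median of DGAT2, r was 0.464 (permutation p = 0.111). Dropping the extremes of a gene also narrows its range, which can lower r by itself. LPL with SCD had r = 0.698 (permutation test, adjusted p = 0.0675) and rho = 0.557 (adjusted p = 0.412), and r was 0.421 without the 2 libraries farthest from the median of LPL. The remaining pairs with an unadjusted p under 0.05 were SCD with ELOVL6 (r = 0.580, permutation p = 0.0239, adjusted p = 0.258) and LPL with ELOVL6 (r = 0.565, permutation p = 0.0286, adjusted p = 0.258). FASN with SCD, neighbouring steps of fatty acid synthesis, had r = 0.136 over 15 libraries and 0.4999 within the set of 8. Likewise, the r of FASN was 0.10 and 0.61 with PLIN2, and 0.14 and 0.55 with DGAT2. With ELOVL6 it was -0.38 and 0.61, and with ELOVL7 -0.17 and 0.27. It was 0.14 and 0.14 with LPL, -0.49 and -0.48 with ELOVL5, and -0.06 and -0.44 with FABP3. Within the set of 8, no FASN pair had an exact permutation p under 0.05.

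The genes whose pattern over heifers came nearest to each member were ranked by Spearman correlation after class means were removed, over 15 libraries and among all tested genes with a symbol. This ranking is a description, since the highest value among all genes is picked. Differences between the library sets were not removed. FASN did not overlap between the sets of 5 and 8, where 30.7% of all genes passed. The part of the sets in these correlations was not tested. ELOVL6 was nearest to ACSL3, an enzyme that activates long-chain fatty acids (rho = 0.954). FASN was nearest to KMT2D, a histone methyltransferase (0.979), PLIN2 to NWD2 (0.957) and GCLC, an enzyme of glutathione synthesis (0.939), and LPL to WSCD1 (0.936). DGAT2 was nearest to the solute carrier SLC43A3 (0.929), SCD to ARHGAP26-2 (0.907), ELOVL7 to GABRQ (0.896) and KPNA2 (0.886), ELOVL5 to FAM114A2 (0.893) and FABP3 to SCG3 (0.854). FABP3 therefore had the weakest nearest neighbour of the 9.

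PGR, the progesterone receptor, was set beside LPL and DGAT2 because both have been described as responsive to progesterone. It ranged from 6.92 to 15.1 CPM in the High-fertile, 2.48 to 14.0 CPM in the Sub-fertile and 1.89 to 51.5 CPM in the Infertile heifers. The libraries of the set of 5 were at 1.89 to 3.335 CPM and all others at 6.72 CPM or above. Low PGR thus coincided with that library set. Infertile replicate 2, with the highest PGR, had the second lowest DGAT2 (7.87 CPM) and a low LPL-2 (4.49 CPM). A relation between PGR and these members was not tested.

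The wider lipid pathway was read from 6 lists with 95 genes, of which 91 were tested. In each class comparison 0 of 91 passed the edgeR test, while 12, 17 and 2 had an unadjusted p under 0.05 for Sub-fertile against High-fertile, Infertile against High-fertile and Infertile against Sub-fertile. In the same order 40, 34 and 46 genes were higher, with medians of -0.06, -0.10 and 0.01 beside 0.01, 0.04 and 0.03 over all genes. Classes did not overlap for 7, 2 and 0 of the 91 genes, beside 5.07%, 2.22% and 0.205% of all genes. The genes named from each list below were picked for the smallest p of any class difference. Their own separations therefore cannot be weighed against the shares over all genes. When the sets were in the model, 0 of 91 passed in each comparison, 39, 35 and 35 were higher, and the medians were -0.04, -0.07 and -0.05. Between the sets of 5 and 8, 33 of the 91 passed, 5 of them higher in the set of 5, beside 30.7% of all genes. By list, 4 of 18 passed for uptake and activation, 11 of 24 for storage and lipolysis, and 4 of 11 for synthesis and desaturation. The elongation cycle had 3 of 9, the regulators 7 of 17 and fatty acid oxidation 4 of 12.

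In the list of fatty acid uptake and activation 18 genes were tested. ACSL4, which activates arachidonic acid, was at 192 ± 30.4, 279.8 ± 35.6 and 304 ± 111 CPM in High-fertile, Sub-fertile and Infertile heifers, with log2 fold changes of 0.54 ± 0.212 and 0.66 ± 0.212 against High-fertile (edgeR adjusted p = 0.360 and 0.435). All 5 Sub-fertile libraries exceeded all 5 High-fertile libraries for ACSL4, while its Infertile libraries overlapped with them (5.07% and 2.22% of all genes did not overlap in these comparisons). When the sets were in the model, the fold changes of ACSL4 were 0.29 ± 0.212 and 0.46 ± 0.204. FABP5, a fatty acid binding protein, was at 10.4 ± 1.15, 9.97 ± 1.33 and 14.2 ± 3.97 CPM, with a value of 0.45 ± 0.185 for Infertile against High-fertile (edgeR adjusted p = 0.439), and 0.38 ± 0.164 with the sets in the model.

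In the list of triglyceride storage and lipolysis, 7 of 24 tested genes were higher and 17 lower in Sub-fertile than in High-fertile heifers (median -0.28), and the same counts held for Infertile heifers (median -0.19). In the model with sets, the counts were 7 and 17 (median -0.05), and 10 and 14 (median -0.08). None passed in either model. Between the sets of 5 and 8, 11 of the 24 passed, 10 of them lower in the set of 5, beside 30.7% of all genes. DGAT1, which makes triglycerides by a separate route from DGAT2, was at 34.4 ± 2.47, 24.4 ± 5.36 and 25.2 ± 6.75 CPM, with log2 fold changes of -0.50 ± 0.188 and -0.45 ± 0.188 against High-fertile (edgeR adjusted p = 0.360 and 0.440). All 5 Sub-fertile libraries were below all 5 High-fertile libraries for DGAT1, beside 5.07% of genes without overlap. With the library sets in the model its values were -0.14 ± 0.103 and -0.23 ± 0.0938. FITM1, a protein of droplet formation, was at 5.08 ± 0.452, 3.89 ± 1.45 and 3.37 ± 0.976 CPM (-0.38 ± 0.256 and -0.59 ± 0.257, edgeR adjusted p = 0.443 and 0.450), with -0.15 ± 0.201 and -0.37 ± 0.188 when the sets were in the model.

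In the list of fatty acid synthesis and desaturation, 0 of 11 tested genes passed. FADS1, a desaturase of polyunsaturated fatty acids, was at 60.0 ± 8.68, 80.9 ± 24.4 and 93.0 ± 22.5 CPM. For FADS1, all Sub-fertile and all Infertile libraries exceeded all High-fertile libraries. It was the 1 gene of the 11 without overlap in both comparisons, where 5.07% and 2.22% of all genes did not overlap. Its log2 fold changes were 0.43 ± 0.199 and 0.63 ± 0.200 against High-fertile (edgeR adjusted p = 0.360 and 0.435), and 0.57 ± 0.219 and 0.69 ± 0.212 with the sets in the model. ME1, which supplies NADPH, was at 12.7 ± 2.81, 13.7 ± 1.72 and 18.2 ± 7.39 CPM.

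In the list of the elongation cycle, 7 of 9 tested genes were higher and 2 lower in both lower fertility classes than in High-fertile heifers, with medians of 0.15 and 0.27 and none past the test. In the model with sets, 7 and 6 of the 9 were higher, with medians of 0.14 and 0.11. ELOVL1, the elongase of very long saturated chains, was one of the lower genes, at 83.6 ± 4.29, 72.5 ± 6.87 and 69.4 ± 6.13 CPM (-0.21 ± 0.0937 and -0.27 ± 0.0938, edgeR adjusted p = 0.360 and 0.435), with fold changes of -0.11 ± 0.0759 and -0.20 ± 0.0697 when the sets were in the model. PTPLAD1, an older symbol of HACD3, the dehydratase of the cycle, was at 72.0 ± 8.34, 99.5 ± 10.9 and 99.9 ± 38.4 CPM (0.47 ± 0.216 and 0.47 ± 0.216, edgeR adjusted p = 0.360 and 0.450). Its Sub-fertile libraries all exceeded its High-fertile libraries, beside 5.07% of genes without overlap, and its values with the sets in the model were 0.18 ± 0.213 and 0.27 ± 0.198.

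In the list of lipid regulators, 5 of 17 tested genes were higher and 12 lower in each lower fertility class than in High-fertile heifers, with medians of -0.30 and -0.33 and none past the test. In the model with sets, 7 and 5 of the 17 were higher, with medians of -0.06 and -0.06. Between the sets of 5 and 8, 7 of the 17 passed, 1 of them higher in the set of 5, beside 30.7% of all genes. NR1H3, the liver X receptor alpha, was at 43.8 ± 9.43, 30.1 ± 3.60 and 27.4 ± 7.37 CPM (-0.54 ± 0.188 and -0.68 ± 0.188, edgeR adjusted p = 0.360 and 0.435), with fold changes of -0.39 ± 0.226 and -0.61 ± 0.197 when the sets were in the model. The sum of 7 macrophage markers, cells in which NR1H3 is also expressed, was at 95.5 to 199, 72.1 to 97.4 and 63.2 to 171 CPM in the 3 classes, and its part in the NR1H3 values was not tested. PPARGC1A, a coactivator of oxidative metabolism, was at 16.5 ± 2.69, 23.6 ± 4.35 and 27.7 ± 4.87 CPM, with 0.52 ± 0.163 and 0.75 ± 0.164 against High-fertile (edgeR adjusted p = 0.360 and 0.435). Its Infertile libraries all exceeded its High-fertile libraries, beside 2.22% of genes without overlap, and its values with the sets in the model were 0.32 ± 0.159 and 0.61 ± 0.147. PPARGC1A, which earlier results had already named, was the pathway gene that DESeq2 called in Infertile against High-fertile heifers (0.76 ± 0.178, DESeq2 adjusted p = 0.0234).

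In the list of fatty acid oxidation, 0 of 12 tested genes passed. SLC25A20, the carrier of acylcarnitines into mitochondria, was at 31.7 ± 4.75, 24.9 ± 5.34 and 24.7 ± 3.86 CPM (-0.35 ± 0.163 and -0.36 ± 0.163, edgeR adjusted p = 0.360 and 0.450), with fold changes of -0.37 ± 0.184 and -0.42 ± 0.169 when the sets were in the model. ACADVL, a dehydrogenase of very long chains, was at 178 ± 36.2, 148 ± 42.3 and 142 ± 21.6 CPM.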

How the data were processed

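RNA from 15 endometrial biopsies was sequenced from stranded TruSeq mRNA libraries after RNeasy extraction, per the labels' protocols. The authors deposited 1 table of whole read counts per gene entry, and deposited FPKM values, which were used for levels per length and gene lengths. The submitters' processing notes name FastQC, Subread, featureCounts, edgeR and the UMD3.1 build, with tool versions, strand setting and treatment of multiply mapped reads not given in the sources used here. Symbols are those of the table, and no coordinates or sequences are printed.

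The deposited counts were tested with edgeR 4.0.16 in R 4.3.3 (filterByExpr by class, which left 19962 entries and 9 of the 10 members, TMM factors, robust glmQLFit, glmQLFTest, 12 residual degrees of freedom, Benjamini-Hochberg adjustment over all tested genes, threshold 0.05, two-sided). Standard errors were derived from the fold change and the F statistic. CPM uses TMM-scaled library sizes. Library sets came from average-linkage clustering of log2 CPM (prior count 2). With the set as a covariate 10 residual degrees of freedom remained. Correlations used 100000 resamples (within the set of 8, all orders), two-sided, over 36 pairs in place of the 45 planned, since CD36 did not pass the filter. DESeq2 1.42.0, limma-voom (limma 3.58.1), other scalings, filters, sample sets and each library left out were alternatives. The scripts were tested on simulated data.

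The members, the gene lists and the library sets were chosen with earlier results of these data known. Named genes were the members, the 2 genes of each list with the smallest p for any class difference, the nearest genes of each member, PGR and the marker genes. Replicate numbers follow accession order and pair no samples. The floor of 3 counts covers counting error only, while standard errors and SDs include the spread between heifers.

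Other marker lists were read as summed CPM in High-fertile, Sub-fertile and Infertile libraries. Endothelium (8 markers) was at 852 to 1579, 707 to 1068 and 692 to 1024, smooth muscle (6) at 702 to 10630, 485 to 5345 and 484 to 21800, ciliated epithelium (6) at 55.9 to 117, 47.1 to 227 and 83.3 to 204, and blood (5 listed) at 0.594 to 3.36, 0.903 to 3.19 and 0.277 to 5.90. Trophoblast markers (5 of 6 in the table) were at 4.10 to 13.8, 3.39 to 8.57 and 3.62 to 24.4, with TKDP1 at 0 in all libraries. Most of this sum was PAG1, at 2.44 to 24.2 CPM. IFNT2 did not exceed 1.51 CPM, PAG2 was at 0 in 10 libraries and CDX2 at 0 in 7. The sum is therefore not read as a level of trophoblast RNA.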

Additional observations from a re-analysis of the deposited data

Results flagged for a closer look

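In each class of 5 heifers, the highest and lowest library of each member, LPL-2 and CD36-2 was compared with the rest by Dixon's gap ratio, the gap to the nearest library divided by the range of the class. Of 33 groups examined, 5 held a library past the 95% critical value, where chance gives about 1 in 20 for independent groups of normally distributed values. CPM was taken without logs here, and LPL and LPL-2 moved together. The count of 5 is therefore not weighed against that rate. FABP3 was marked in every class, at 12.4 CPM in High-fertile replicate 1 (others 2.87 to 5.36), at 9.13 CPM in Sub-fertile replicate 4 (others 2.12 to 3.64) and at 10.9 CPM in Infertile replicate 5 (others 2.72 to 4.34). DGAT2 was marked in Sub-fertile replicate 3, at 74.5 CPM against 22.8 to 34.5 CPM in the others of its class. LPL-2 was marked in High-fertile replicate 5, which lay lowest at 2.99 CPM against 13.6 to 15.9 CPM.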

How the results depend on the processing

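Of the results that answer a comparison, 164 values under alternatives kept to the values reported and 15 moved. The counts of genes called, 0 in each comparison with edgeR, were 19 (Sub-fertile against High-fertile), 34 (Infertile against High-fertile), 11 (Infertile against Sub-fertile) and 34 (any difference among classes) with DESeq2, and 1 pathway gene was called with DESeq2. With limma-voom, 1 gene was called in Infertile against High-fertile, 1 in Infertile against Sub-fertile and 1 for any difference. Without the 2-library set, 3 genes were called in Sub-fertile against High-fertile. With each library left out in turn that count ran from 0 to 3, with 3 without High-fertile replicate 1, 3 without Infertile replicate 5, 1 without High-fertile replicate 3 and 1 without Infertile replicate 1. The number of members with classes that did not overlap in any comparison, 1 over all libraries, was 5 within the 8-library set, where 21.2%, 13.1% and 30.1% of all genes did not overlap in the 3 comparisons, and ran from 1 to 2 with each library left out, with 2 without Sub-fertile replicate 1. The cause of these changes was not tested. The call of FASN between the sets of 5 and 8 held under every alternative run for it. Each of these runs kept the sets as first defined, and FASN did not overlap between the sets of 5 and 8. The kept call therefore adds no support. Over scalings, filters and tools, the median of all genes shifted by less than 0.1 on the log2 scale. No paired analysis was possible because each library came from 1 heifer with 1 class label, so the classes hold different animals. With 5 heifers per class, the standard errors of LPL, FABP3 and DGAT2 (above 0.5 on the log2 scale) limit what could be seen of them, and the 6 counts of CD36 allow no comparison. The library sets were defined after the data had been seen and hold 0 High-fertile libraries in the set of 5, so set and class are partly confounded.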
